A study of Mus musculus with 24 samples.

Results

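Alveolar macrophages are the resident phagocytes of the air spaces, and 10 genes commonly used to recognise them were examined in cultured mouse macrophages: Pparg, Bhlhe41, Car4, Fabp4, Chil3, Ear2, Siglecf, Marco, Itgax and Krt79. They were chosen by symbol, each symbol matched 1 of the 55421 genes counted, and all 10 passed the filter on low counts. In the lung, GM-CSF from the epithelium and TGF-β induce PPARγ in fetal monocytes, and PPARγ drives the genes of lipid handling that let these cells clear surfactant. The surface of mature cells carries the sialic acid lectin SiglecF and the integrin CD11c, the latter at a level otherwise typical of dendritic cells, and exposure to bacterial products changes this surface and metabolic programme. AhR is a ligand-activated transcription factor of the cytosol that binds the core sequence GCGTG in the nucleus together with ARNT.

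RNA sequencing of bone marrow-derived macrophages (BMDMs) was used to ask how loss of AhR and stimulation with LPS, a cell wall component of Gram-negative bacteria, change the cells. The marrow came from wildtype (WT) C57/B6/J mice or from AhR-KO mice with a germline knockout allele (strain B6.129-Ahr tm1Bra/J), so every cell type of the donor carried it. All cultures received 10 ng/ml GM-CSF and 2 ng/ml TGF-β to drive an alveolar-like state, and all were treated with 5 µM of the Ca2+ ionophore A23187 for 10 min at the end. On day 6 cells were left unstimulated or received 97 EU/ml LPS for 24 h, which gave 4 groups of 6 libraries: WT unstimulated, AhR-KO unstimulated, WT LPS and AhR-KO LPS. The libraries of a group are described as separate animals of a single experiment, and the labels do not say whether an unstimulated and an LPS culture came from the same animal. Ages of single animals are not given in the labels, and no fresh alveolar macrophages were sequenced.

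Depth was between 45106052 and 76992663 counts per library. Ahr itself was lower in AhR-KO than in WT cells without stimulation (7.42 ± 2.39 against 28.3 ± 12.2 CPM, SD, n = 6) but higher after LPS (43.1 ± 16.2 against 16.8 ± 7.63 CPM), and since a count over the whole gene does not separate intact from disrupted transcripts it does not check the LPS labels. The AhR target Ahrr, which encodes the AhR repressor, was between 13.3 and 96.6 CPM in the 12 WT libraries and at most 1.05 CPM in the 12 AhR-KO libraries. The library numbers 17 to 40 form 3 runs of 8 consecutive numbers with 2 libraries of every group in each, and replicates 19 (AhR-KO unstimulated) and 33 (WT unstimulated) lay farthest from their groups. Replicates 34 (WT unstimulated) and 38 (WT LPS) had 2 and 4 counts over the Y-linked genes examined, where the other 22 libraries had at least 8596. CPM stands for counts per 1000000 after TMM scaling. Differentially expressed genes (DEGs) were those with an adjusted p up to 0.05 that differed at least 2-fold, a log2 fold change of 1 in either direction.

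Because AhR binds DNA, the sequence before the RefSeq starts of the members was read first. RefSeq promoters on GRCm38.p6 were found for 9 of the 10 members in 11 windows, and Fabp4 had no entry in the table used. The 250 bases before the RefSeq start are shown for the 3 members that differed between genotypes as DEGs (Siglecf, Ear2 and Car4) and for Itgax, the 4 windows being chr7:43351091-43351340, chr14:44102404-44102653, chr11:84957504-84957753 and chr7:128129300-128129549, all on the plus strand. Capitals mark GCGTG, the AhR core, and GAGGAA, a core of the macrophage factor PU.1, each on either strand.
Siglecf: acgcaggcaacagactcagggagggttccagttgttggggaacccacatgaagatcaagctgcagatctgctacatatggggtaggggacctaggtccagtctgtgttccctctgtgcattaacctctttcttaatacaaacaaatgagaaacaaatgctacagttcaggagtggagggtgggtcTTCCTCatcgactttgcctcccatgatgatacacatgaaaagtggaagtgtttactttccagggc
Ear2: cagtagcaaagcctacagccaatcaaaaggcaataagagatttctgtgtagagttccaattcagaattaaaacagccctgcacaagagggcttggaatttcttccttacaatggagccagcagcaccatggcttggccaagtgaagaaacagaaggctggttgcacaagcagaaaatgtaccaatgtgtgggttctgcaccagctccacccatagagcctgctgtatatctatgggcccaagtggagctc
Car4: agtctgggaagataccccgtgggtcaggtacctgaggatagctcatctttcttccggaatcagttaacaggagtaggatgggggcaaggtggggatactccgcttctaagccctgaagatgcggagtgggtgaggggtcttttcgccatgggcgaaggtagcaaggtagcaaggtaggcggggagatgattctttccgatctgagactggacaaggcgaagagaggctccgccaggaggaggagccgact
Itgax: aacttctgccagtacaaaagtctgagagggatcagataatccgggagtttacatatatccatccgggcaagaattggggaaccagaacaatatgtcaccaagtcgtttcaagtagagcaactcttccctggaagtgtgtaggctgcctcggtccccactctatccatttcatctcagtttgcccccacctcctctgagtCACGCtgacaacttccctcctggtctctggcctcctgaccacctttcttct
GCGTG was absent from the windows of Siglecf, Ear2 and Car4, and Itgax held it once, on the minus strand. Bhlhe41 and the first of 3 Pparg windows held GCGTG 2 times each. This made 3 of 9 members with the core and 3 of 11 windows, the latter beside 28.2% of all 32851 promoter windows. The longer TTGCGTG, which contains the core, was in none of the members' windows and in 0.925% of all. GAGGAA was found in Siglecf, Marco and the second Pparg window and in 23.3% of all promoters. The E-box CACGTG, a sequence bound by Bhlhe41 and related factors, was found only in the window of Bhlhe41 (6.02% of all), and TTCNNNGAA, bound by the STAT5 factors downstream of GM-CSF, only in that of Chil3 (7.02% of all). TTGCNNAA, a form of the site of C/EBP factors, was in Ear2 and the third Pparg window (9.56% of all). No window held the exact direct repeat of AGGTCA with 1 base between that PPARγ binds with RXR (0.0335% of all). The RefSeq start of Car4 lies before the first base of the gene as counted. Inside the gene as counted lay 138 of the 250 bases of Bhlhe41 and 193, 250 and 250 bases of the 3 Pparg windows. Both GCGTG matches of Bhlhe41 and the later one of Pparg were among these bases, so they are not upstream of the gene as counted. These matches describe 250 bases only and were searched on both strands.

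The members spanned a wide range of expression. Per kb of merged exon in WT unstimulated cells, Chil3 stood at 3409 ± 704 CPM per kb, Ear2 at 954 ± 256, Car4 at 444 ± 59.1 and Itgax at 115 ± 41.6 (SD, n = 6), and the libraries of neighbours in this order did not overlap from Chil3 down to Itgax. Marco, Pparg, Siglecf, Bhlhe41, Fabp4 and Krt79 followed between 31.3 and 2.41 CPM per kb, each overlapping its neighbour. In AhR-KO unstimulated cells Ear2 (2667 CPM per kb) overlapped Chil3 (3036 CPM per kb) at the top. After LPS the order changed, with Car4 second in WT (932 CPM per kb) and first in AhR-KO cells (1869 CPM per kb, overlapping Chil3 at 1710), and Krt79 last at 0.0208 and 0.0035 CPM per kb.

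**Figure D1:**
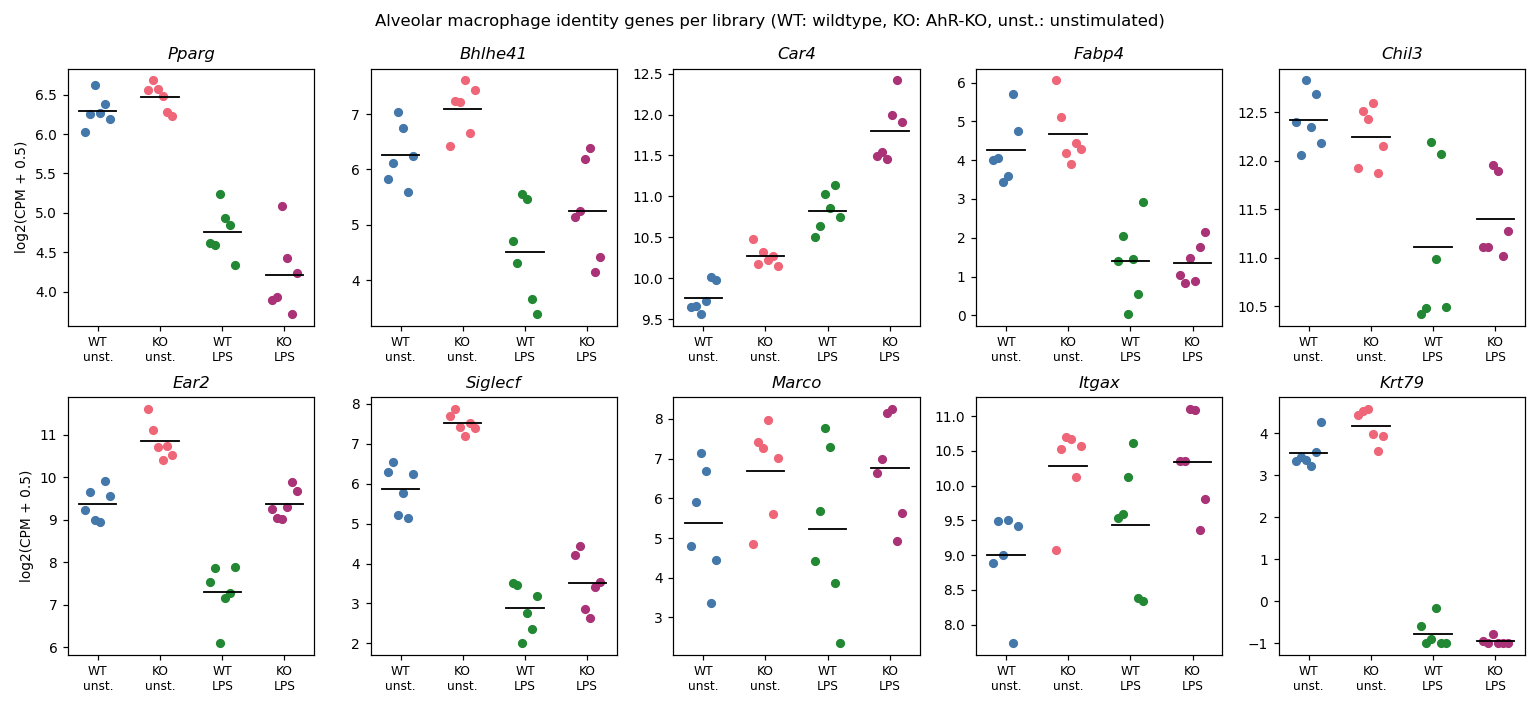
Expression of the 10 members in each of the 24 libraries as log2(CPM + 0.5), with 1 point per library and a line at the group mean on this scale. Siglecf and Ear2 of AhR-KO unstimulated cells lie above all WT unstimulated libraries, Car4 is higher in both LPS groups, and Krt79 is close to the bottom of the scale in both LPS groups.

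The first comparison asked whether loss of AhR changed these genes without stimulation. In all, 2 members were DEGs, both higher in AhR-KO cells: Siglecf and Ear2. Of all 16593 genes tested 0.916% were higher and 3.57% were lower DEGs, so 2 of 10 members higher and 0 of 10 lower stand beside those shares. The median log2 fold change was 0.74 over the members and −0.01 over all genes tested, and the libraries of the genotypes did not overlap for 3 members (Siglecf, Ear2 and Car4), beside 5.15% of all genes. In bulk RNA, fewer cells of a type and less RNA per cell cannot be told apart.

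Siglecf (ENSMUSG00000039013, mm10 chromosome 7, 43351341 to 43359531), the lectin used to gate alveolar macrophages and eosinophils, ran from 34.98 to 92.7 CPM in WT unstimulated libraries with a median of 64.6. In AhR-KO unstimulated libraries it ran from 145 to 233 CPM with a median of 177. All 6 AhR-KO libraries were therefore above all 6 WT libraries, a log2 fold change of 1.57 ± 0.33 (SE) or 2.97-fold (edgeR's quasi-likelihood test with Benjamini-Hochberg adjustment, adjusted p = 0.0028). Within the 3 runs of library numbers the difference was 1.36, 1.80 and 1.77 on the log2(CPM + 0.5) scale. After LPS Siglecf was low in both genotypes, with medians of 7.42 CPM in WT and 10.6 CPM in AhR-KO cells, and the genotypes overlapped (log2 fold change 0.71 ± 0.32, adjusted p = 0.181 by the same test). Within runs it was higher in AhR-KO libraries after LPS by 0.84, 0.37 and 0.70. With the run as a factor the log2 fold change after LPS was 0.66 (adjusted p = 0.0245 by the same test), below the minimum fold for a DEG.

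Ear2 (ENSMUSG00000072596, chromosome 14, 44102654 to 44103534), a secreted ribonuclease of the eosinophil-associated family, differed between genotypes in both states. Without stimulation it ran from 490 to 960 CPM (median 675) in WT and from 1354 to 3094 CPM (median 1683) in AhR-KO libraries. After LPS it ran from 68.3 to 238 CPM (median 169) in WT and from 521 to 940 CPM (median 621) in AhR-KO libraries. The genotypes did not overlap in either state, with log2 fold changes of 1.48 ± 0.27 (adjusted p = 6.4e-04, edgeR's quasi-likelihood test) and 1.98 ± 0.27 (adjusted p = 1.6e-05). The within-run differences were 1.92, 1.58 and 0.90 without stimulation and 1.45, 2.53 and 2.18 after LPS. Of its 100-base stretches 13.9% also occurred in transcripts of Ear10 or the pseudogene Ear-ps2 and a single read within these matches more than 1 gene. How many fragments this kept out of its count was not measured. Other Ear genes were counted separately: Ear1 was higher in AhR-KO cells in both states (log2 fold changes 1.48 and 1.72), as was Ear10 (1.57 and 1.73). Ear6 was lower (−1.17 and −1.82). Group means of Ear10 lay only between 0.405 and 4.44 CPM, and it correlated with Ear2 over the 24 libraries (r = 0.967). Of the 100-base stretches of Ear10 24.2% were shared with Ear1, Ear2 or Ear-ps2. For Ear1 23.9% were shared with Ear10 or Ear-ps9. Whether fragments of related genes entered the counts of Ear1 and Ear10 was not tested.

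Car4 (ENSMUSG00000000805, chromosome 11, 84957786 to 84966044), a membrane-bound carbonic anhydrase, ran from 754 to 1031 CPM in WT and from 1136 to 1422 CPM in AhR-KO unstimulated libraries (medians 824 and 1212). The genotypes did not overlap, yet the log2 fold change of 0.50 ± 0.16 was not called (adjusted p = 0.064, edgeR's quasi-likelihood test), and where other fits brought the adjusted p below 0.05, as DESeq2 did, the change stayed under the minimum fold. After LPS, Car4 ran from 1453 to 2263 CPM (median 1789) in WT and from 2805 to 5475 CPM (median 3413) in AhR-KO libraries, again without overlap. The log2 fold change there, 1.004 ± 0.16 (adjusted p = 9.2e-05), lay on the minimum for a DEG. It fell below that minimum without any 1 of 8 libraries (replicates 19, 21, 22, 32, 33, 38, 39 and 40), to 0.85 without replicate 39 at the lowest, and in 6 other fits, 2 of which left out a pair of libraries, to 0.77 with total library sizes. The adjusted p stayed at or below 4.9e-04 in all of these. Within runs the difference was 0.67, 0.63 and 0.21 without stimulation and 0.94, 0.78 and 1.22 after LPS.

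The same question was asked after LPS, where 2 members were DEGs, Ear2 and Car4, both higher in AhR-KO cells. Among all genes 2.17% were higher and 6.19% were lower DEGs, beside 2 of 10 members higher and 0 of 10 lower. The libraries of the genotypes did not overlap for those 2 members, beside 7.11% of all genes, and the median log2 fold change was 0.73 over the members and −0.05 over all genes.

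Itgax (ENSMUSG00000030789, chromosome 7, 128129547 to 128150657), which encodes the integrin chain CD11c, and the scavenger receptor Marco (ENSMUSG00000026390, chromosome 1, 120474538 to 120505024) varied widely within groups. Itgax ran from 213 to 729 CPM (median 599) in WT and from 540 to 1665 CPM (median 1493) in AhR-KO unstimulated libraries, and 5 of the 6 AhR-KO libraries were above every WT library. Its log2 fold change of 1.25 ± 0.39 had an adjusted p of 0.061 (edgeR's quasi-likelihood test), and the gene was a DEG with DESeq2 (1.27, adjusted p = 0.0166), with the 12 unstimulated libraries alone (1.28, adjusted p = 0.0402) and without replicate 19 (1.42, adjusted p = 0.0279). It was also a DEG without replicate 30, 37, 38 or 39 of the LPS groups, with adjusted p between 0.0436 and 0.0498. The exception among the AhR-KO libraries was replicate 19, with 540 CPM. After LPS Itgax ran from 324 to 1572 CPM in WT and from 658 to 2194 CPM in AhR-KO libraries (medians 758 and 1308), with a log2 fold change of 0.81 ± 0.39 (adjusted p = 0.208). Marco ran from 9.83 to 142 CPM in WT and from 28.4 to 249 CPM in AhR-KO unstimulated libraries (medians 43.3 and 141), a log2 fold change of 1.11 ± 0.80 (adjusted p = 0.726). After LPS it ran from 4.63 to 216 CPM in WT and from 30.02 to 303 CPM in AhR-KO libraries (medians 35.98 and 113), a log2 fold change of 0.94 ± 0.79 (adjusted p = 0.594).

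The spread of both genes followed the library numbers. Marco averaged 72.9 CPM over libraries 17 to 24, 200.4 CPM over 25 to 32 and 38.3 CPM over 33 to 40, and Itgax averaged 917, 1451 and 717 CPM. Within each run AhR-KO libraries were higher than WT libraries for Marco, by 0.79, 0.70 and 2.41 on the log2(CPM + 0.5) scale without stimulation and by 1.76, 0.67 and 2.16 after LPS. Itgax was higher in AhR-KO libraries by 0.62, 1.43 and 1.76 without stimulation and by 0.79, 0.72 and 1.22 after LPS. With the run as a factor Marco was a DEG in both states (1.63, adjusted p = 0.032 and 1.34, adjusted p = 0.0496, edgeR's quasi-likelihood test), and Itgax was a DEG without stimulation (1.27, adjusted p = 0.0078). After LPS Itgax stood at 0.87 in that fit (adjusted p = 0.0474 by the same test), below the minimum fold. Libraries also differed in how log2 CPM rose with log2 gene length, with a slope between 0.0952 (replicate 19) and 0.585 and run means of 0.357, 0.533 and 0.257. After removal of the group means, this slope correlated over the 24 libraries with Marco (r = 0.934), Itgax (r = 0.934) and Bhlhe41 (r = 0.915), and in the other direction with Ear2 (r = −0.713) and Fabp4 (r = −0.659). The other members lay between −0.454 (Car4) and 0.459 (Pparg), with Siglecf at −0.191. These are descriptions of libraries that share runs and protocol, the slope is itself made from the genes of each library, and its part in the spread was not tested beyond entering it as a covariate. With that covariate Marco and Itgax were DEGs in both states, Marco with 1.23 (adjusted p = 0.0057) and 1.60 (adjusted p = 2.8e-04) and Itgax with 1.18 (adjusted p = 2.0e-06) and 1.02 (adjusted p = 7.9e-06).

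**Figure D2:**
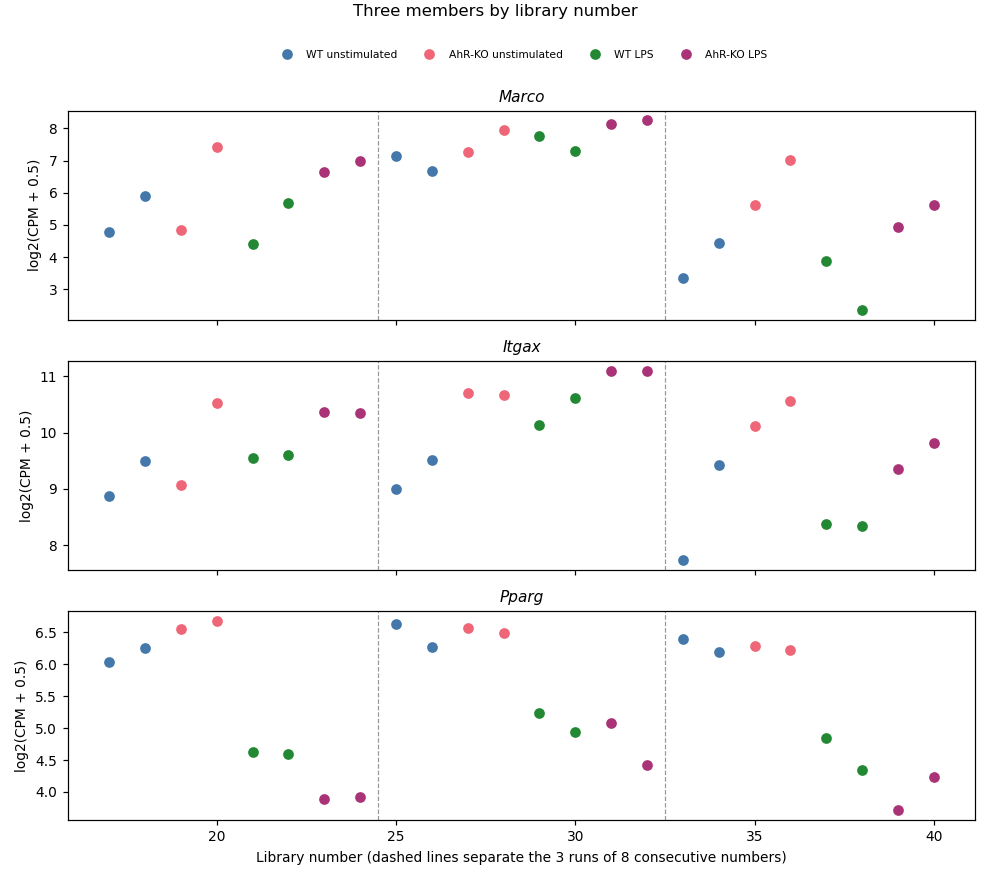
Marco, Itgax and Pparg as log2(CPM + 0.5) against library number, coloured by group, with dashed lines between the 3 runs of 8 libraries. Marco is high in all groups in libraries 25 to 32 and low in most of 33 to 40, whereas Pparg separates by LPS in every run.

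For the other 5 members no DEG was found between the genotypes. Pparg (ENSMUSG00000000440, chromosome 6, 115360951 to 115490399), the nuclear receptor at the head of the programme, ran from 64.8 to 98.1 CPM in WT and from 74.4 to 102 CPM in AhR-KO unstimulated libraries (log2 fold change 0.17 ± 0.19, adjusted p = 0.965, edgeR's quasi-likelihood test). After LPS it ran from 19.7 to 37.1 CPM in WT and from 12.6 to 33.4 CPM in AhR-KO libraries, and 4 of 6 AhR-KO libraries were below every WT library (−0.51 ± 0.20, adjusted p = 0.0975). Bhlhe41 (ENSMUSG00000030256, chromosome 6, 145858243 to 145865558), a repressor that with Bhlhe40 maintains alveolar macrophage identity, had medians of 72.0 and 149 CPM without stimulation (0.81 ± 0.40, adjusted p = 0.393). Its medians after LPS were 22.6 CPM in WT and 36.2 CPM in AhR-KO cells (0.75 ± 0.40, adjusted p = 0.286). Both genes overlapped between genotypes in both states. Within runs Bhlhe41 was higher in AhR-KO libraries by 0.85, 0.53 and 1.13 without stimulation and by 0.68, 0.77 and 0.76 after LPS on the log2(CPM + 0.5) scale, and Pparg after LPS stood at −0.70, −0.33 and −0.62. With the run as a factor the adjusted p of Bhlhe41 was 0.0171 and 0.0331 (0.91 and 0.75) and that of Pparg after LPS was 0.0175 (−0.54), and with the length slope these were 0.0012, 2.5e-04 and 0.0228. Pparg after LPS also passed 0.05 with total library sizes (−0.73) and without replicate 31 (−0.75), and all of these changes were below the minimum fold.

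Fabp4 (ENSMUSG00000062515, chromosome 3, 10204088 to 10208576), a fatty acid carrier and PPARγ target, had medians of 15.8 and 20.2 CPM in WT and AhR-KO unstimulated cells (0.39 ± 0.52, adjusted p = 1.0), and the difference was −0.038 without replicate 19, where it was highest (66.3 CPM). After LPS its log2 fold change lay the other way (−0.32 ± 0.53, adjusted p = 0.853, edgeR's quasi-likelihood test). Chil3 (ENSMUSG00000040809, chromosome 3, 106147554 to 106167564), which encodes the chitinase-like protein Ym1, had medians of 5300 and 5027 CPM (−0.17 ± 0.29, adjusted p = 1.0) and a log2 fold change of 0.14 ± 0.29 after LPS (adjusted p = 0.901). Of the 100-base stretches of Chil3 4.93% were shared with Chil4 or Gm6522, and of Itgax 3.05% with Itgad. Genes on the opposite strand overlap Pparg (Gm44079), Bhlhe41 (Gm43909) and Ear2 (Gm49101), and the libraries were strand-specific. Krt79 (ENSMUSG00000061397, chromosome 15, 101929332 to 101940324), a keratin gene that marks alveolar macrophages in mouse, ran from 8.86 to 18.9 CPM in WT and from 11.5 to 23.4 CPM in AhR-KO unstimulated libraries (0.67 ± 0.60, adjusted p = 0.866).

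**Figure D3:**
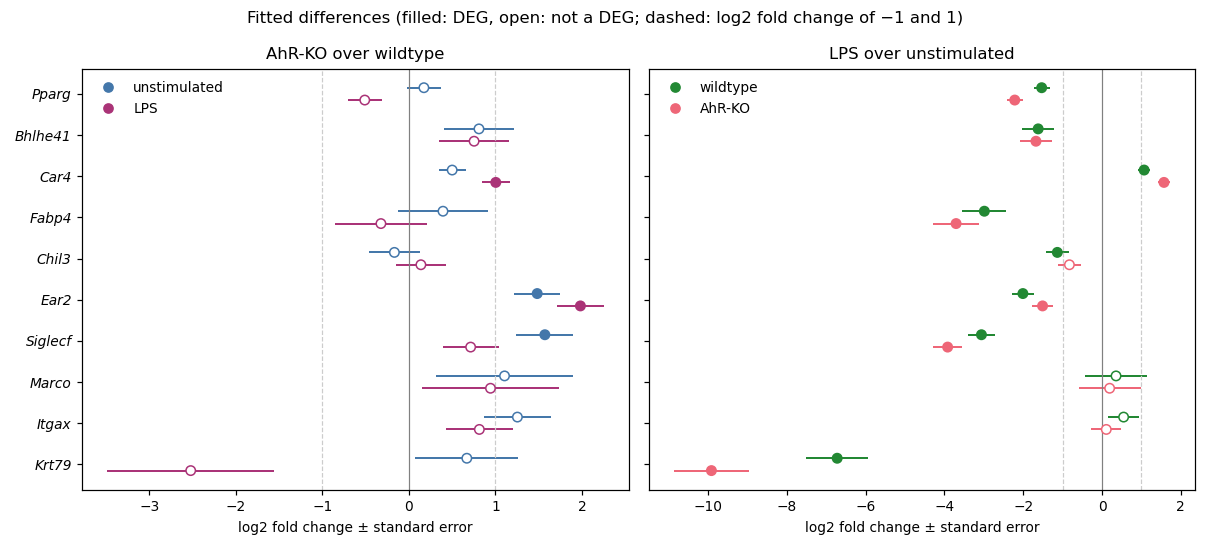
Fitted log2 fold changes of the 10 members, AhR-KO over WT on the left and LPS over unstimulated on the right, with bars of 1 standard error. Filled points are DEGs: Siglecf and Ear2 without stimulation and Ear2 and Car4 after LPS on the left, and 8 members in WT and 7 in AhR-KO cells on the right.

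The second comparison asked how LPS changed the members in each genotype. In WT cells 7 members fell and 1, Car4, rose, where 11.8% of all genes were lower and 13.2% were higher DEGs. The libraries did not overlap for 7 members, beside 22.4% of all genes. In AhR-KO cells 6 members fell and Car4 rose, where 15.7% of all genes were lower and 15.1% were higher DEGs, and 7 members did not overlap, beside 28.5% of all genes. The median log2 fold change over the members was −1.58 in WT and −1.59 in AhR-KO cells, against 0.03 and −0.03 over all genes. Scaling by total library size moved the median of all genes by −0.34 in WT and −0.48 in AhR-KO cells, and by −0.22 between the genotypes after LPS and −0.13 in the interaction.

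Both transcription factors fell. Pparg fell from a median of 76.2 to 26.2 CPM in WT cells, a log2 fold change of −1.53 ± 0.20 (adjusted p = 1.4e-06, edgeR's quasi-likelihood test). In AhR-KO cells it fell from 91.3 to 16.5 CPM (−2.21 ± 0.20, adjusted p = 4.2e-09). Bhlhe41 fell by 1.62 ± 0.41 in WT (adjusted p = 0.0030) and by 1.68 ± 0.41 in AhR-KO cells (adjusted p = 0.0018) on the log2 scale. Unstimulated and LPS libraries did not overlap for either gene in either genotype.

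Among the surface and secreted markers, Siglecf fell by 3.06 ± 0.35 on the log2 scale in WT (adjusted p = 1.9e-07) and by 3.92 ± 0.36 in AhR-KO cells (adjusted p = 4.2e-09), and its LPS libraries, from 3.53 to 21.1 CPM, lay below all unstimulated ones. Ear2 fell by 2.01 ± 0.27 (adjusted p = 2.3e-06) and by 1.51 ± 0.27 (adjusted p = 5.6e-05). The Ear2 level of AhR-KO cells after LPS (674 ± 168 CPM, SD, n = 6) was close to that of WT cells without stimulation (686 ± 184 CPM), a pair of groups that was not tested. Chil3 fell from a median of 5300 to 1736 CPM in WT cells (−1.13 ± 0.29, adjusted p = 0.0035), with 4 of 6 LPS libraries below every unstimulated one, and it was short of the minimum fold without replicate 22 (−0.99) or 38 (−0.998). In AhR-KO cells Chil3 stood at medians of 5027 and 2343 CPM, and its log2 fold change of −0.83 ± 0.29 (adjusted p = 0.0241) was below the minimum fold for a DEG, though with total library sizes it was −1.32 and called (adjusted p = 6.1e-04).

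Fabp4 ran from 10.4 to 51.5 CPM in WT unstimulated and from 0.522 to 7.12 CPM in WT LPS libraries (−2.99 ± 0.56, adjusted p = 1.5e-04, edgeR's quasi-likelihood test). In AhR-KO cells it ran from 14.4 to 66.3 CPM without and from 1.29 to 3.90 CPM with LPS (−3.70 ± 0.58, adjusted p = 1.2e-05). Krt79 nearly vanished. Over all 6 LPS libraries it had 39 counts in WT cells, in 3 libraries, and 5 counts in AhR-KO cells, in 2 libraries, so that its fitted changes of −6.72 ± 0.79 and −9.91 ± 0.96 rest on very few counts and depend on the fit. Between the genotypes after LPS its fitted −2.52 ± 0.97 was not called (adjusted p = 0.0964) and was called with DESeq2 (−2.60, adjusted p = 0.0325) and without replicate 31 (−4.15, adjusted p = 0.0232), which held most of the AhR-KO counts. It was −1.26 with limma-voom (adjusted p = 0.574) and −1.21 without WT replicate 30 (adjusted p = 0.558), which held 28 of the 39 WT counts.

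Car4 was the exception, rising by a log2 fold change of 1.07 ± 0.16 (adjusted p = 8.4e-06) in WT and 1.57 ± 0.16 (adjusted p = 2.2e-08) in AhR-KO cells. The rise in WT was 0.72 with total library sizes, below the minimum fold. Itgax (0.55 ± 0.39, adjusted p = 0.289 in WT and 0.11 ± 0.38, adjusted p = 0.852 in AhR-KO) and Marco (0.36 ± 0.79, adjusted p = 0.771 and 0.19 ± 0.79, adjusted p = 0.872) overlapped between states, and the direction of the Itgax difference in AhR-KO cells and of both Marco differences turned under other scalings or with the run as a factor.

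Whether the response to LPS differed between genotypes was tested as an interaction. None of the 10 members passed an adjusted p of 0.05 with edgeR, beside 4.3% of all genes. Before adjustment 3 had a p under that value: Krt79 (−3.19, adjusted p = 0.140), Pparg (−0.68 ± 0.28, adjusted p = 0.224) and Car4 (0.50 ± 0.22, adjusted p = 0.293). Shares of all genes are not given for that unadjusted limit or for the alternatives that follow. DESeq2 called 1 member, Krt79 (−3.29, adjusted p = 0.0406), and limma-voom called 0. With the length slope as a covariate Krt79 passed (−3.21, adjusted p = 0.0477). With the run as a factor Pparg (−0.72, adjusted p = 0.0488) and Siglecf (−0.97, adjusted p = 0.0387) passed, and without replicate 31 Pparg (−0.93, adjusted p = 0.0182) and Krt79 (−4.83, adjusted p = 0.0380) did.

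The members fell into sets by their correlation over the 24 libraries, which is a description that includes the group differences and the shared runs. Krt79 went with Pparg (r = 0.943), Siglecf (r = 0.925) and Fabp4 (r = 0.908), Marco with Itgax (r = 0.867), and Car4 opposite to Pparg (r = −0.845). The genes most like Pparg in pattern on the log2(CPM + 0.5) scale were Stard4 (r = 0.981), Reps2 (r = 0.977) and Tob1 (r = 0.976). Those most like Car4 were Plaur (r = 0.968), Atp1b3 (r = 0.964) and Pttg1ip (r = 0.964), and those most like Siglecf were Tgfbr1 (r = 0.974), Sla (r = 0.970) and Ccr2 (r = 0.968).

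The wider alveolar macrophage programme was read from a list of 34 other genes, all of them tested. Between genotypes 5 were higher and 2 lower in AhR-KO cells without stimulation, with a median log2 fold change of 0.68 against −0.01 over all genes. These were 14.7% and 5.88% of the list, beside 0.916% and 3.57% of all genes. The higher ones with the largest change were the fatty acid receptor Cd36 (2.02), Ear10 (1.57), Ear1 (1.48) and the protease gene Ctsk (1.34), and the lower ones were Gpnmb (−1.64) and Ear6 (−1.17). Ear10 and Ear1 share stretches with other Ear genes, as given above. After LPS 6 were higher, among them Flt1 (3.09) and Cd36 (2.36), and 5 were lower, among them Fabp5 (−2.29) and Net1 (−1.98), with a median of 0.38 against −0.05. These were 17.6% and 14.7% of the list, beside 2.17% and 6.19% of all genes. The summed list ran from 17609 to 31827 CPM in WT and from 21894 to 39002 CPM in AhR-KO unstimulated libraries. After LPS it ran from 14872 to 23195 CPM in WT and from 24137 to 30236 CPM in AhR-KO libraries, a sum weighted to the most abundant genes. LPS lowered 16 and raised 5 in WT cells and lowered 19 and raised 5 in AhR-KO cells. The lowered share was 47.1% in WT and 55.9% in AhR-KO cells, beside 11.8% and 15.7% of all genes, and the raised share, 14.7% in both, was near the 13.2% and 15.1% of all genes. Mrc1, the mannose receptor (−3.98 and −5.47), Krt19 (−5.96 and −6.86) and the lipid droplet gene Cidec (−3.74 and −6.33) had the lowest fitted changes, and Inhba, which encodes activin A (5.72 and 5.26), the highest. The changes of Krt19 and Cidec rest on few counts, 47 and 41 for Krt19 and 29 and 6 for Cidec over the WT and AhR-KO LPS groups. In the interaction Fabp5 (−3.16), Net1 (−2.11) and Il1rn (1.35) passed. These were 5.88% of the list with negative and 2.94% with positive values, beside 4.3% of all genes in either direction.

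Of 22 tested PPARγ target genes Cd36 and the phospholipid transfer protein gene Pltp (1.42) were higher in AhR-KO cells without stimulation, and after LPS Cd36 was higher and Fabp5 lower. Without stimulation the higher share was 9.09%, beside 0.916% of all genes, and after LPS both shares were 4.55%, beside 2.17% higher and 6.19% lower among all genes. The summed targets ran from 2057 to 4368 CPM in WT and from 3247 to 7067 CPM in AhR-KO unstimulated libraries. After LPS the sum ran from 2109 to 4922 CPM in WT and from 3730 to 7137 CPM in AhR-KO libraries. LPS raised 4 and lowered 3 in WT cells and raised 3 and lowered 9 in AhR-KO cells. In WT cells these shares, 18.2% and 13.6%, were near those of all genes, and in AhR-KO cells the lowered share was 40.9% beside 15.7% of all genes. In the interaction 9.09% of the targets passed, all with negative values, beside 4.3% of all genes in either direction. Cidec and the desaturase gene Scd1 (−1.84 and −3.67) fell in both genotypes, and Abca1, a cholesterol exporter that is also a liver X receptor target, rose in both (4.03 and 2.82). Of 26 regulators, among them the receptors for GM-CSF and TGF-β, the only DEG between the genotypes in either state by edgeR was Egr2, higher in AhR-KO cells after LPS (1.13), a share of 3.85% beside 2.17% of all genes. LPS raised 5 and lowered 4 in WT cells and raised 4 and lowered 5 in AhR-KO cells. These shares, 19.2% and 15.4% in WT and 15.4% and 19.2% in AhR-KO cells, were near those of all genes (13.2% and 11.8%, and 15.1% and 15.7%). Among the regulators called, Klf4 (−3.20 and −3.22), Rxra (−2.10 and −2.46) and Cebpa (−1.62 and −2.15) fell, and Itgb8, part of an integrin that activates TGF-β (6.90 and 7.93, from 42 and 18 counts over the WT and AhR-KO unstimulated groups), rose.

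Markers of other cells that such cultures can hold were read beside these results, where 3.57% of all genes were lower and 0.916% higher DEGs in AhR-KO cells without stimulation and 6.19% and 2.17% after LPS. Of 9 tested eosinophil genes, a cell type that also carries SiglecF, 1 was higher in AhR-KO cells without stimulation (Ear1) and 2 were lower (Cebpe and Ear6). Their summed level ran from 132 to 298 CPM in WT and from 119 to 280 CPM in AhR-KO unstimulated libraries, and from 75.4 to 236 and from 67.8 to 148 CPM after LPS. Prg2 and Epx, the genes of the eosinophil granule proteins, averaged 80.5 and 7.73 CPM in WT and 49.7 and 3.37 CPM in AhR-KO unstimulated cells. After LPS, Ear1 was again higher and Cebpe, Ear6 and Adgre4 were lower. Of 17 tested dendritic and Langerhans cell genes, some of which mark cells rich in CD11c, 9 were lower and 3 higher in AhR-KO cells without stimulation and 11 lower and 1 higher after LPS. Cd207, the langerin gene, was lower without stimulation (−9.67, 17 counts over the AhR-KO group against 14280 in WT). After LPS it had 0 counts in AhR-KO and 857 in WT cells, at least 258-fold lower at a floor of 3 counts over the group. Flt3 was lower in both states (−6.32 and −8.86, fitted to 7 and 11 counts over the AhR-KO groups). The summed list ran from 1165 to 2337 CPM in WT and from 2580 to 6529 CPM in AhR-KO unstimulated libraries, with Ccl17 higher (2.38). After LPS the sum ran from 4951 to 11868 CPM in WT and from 4539 to 11597 CPM in AhR-KO libraries.

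Of 13 tested neutrophil genes 10 were lower in AhR-KO cells without stimulation and 8 after LPS. Their sum ran from 2171 to 12945 CPM in WT and from 282 to 829 CPM in AhR-KO unstimulated libraries, and from 879 to 8577 and from 177 to 1042 CPM after LPS. Of 9 tested mast cell and basophil genes 6 were lower in each state, and their sum ran from 9.81 to 29.5 CPM in WT and from 2.33 to 5.39 CPM in AhR-KO unstimulated libraries. After LPS, where Hdc, the histidine decarboxylase gene, had risen (6.74 in WT and 10.52 in AhR-KO), the sum ran from 335 to 519 CPM in WT and from 535 to 838 CPM in AhR-KO libraries, most of it from Hdc (mean 411 and 648 CPM). Of 16 tested genes of other macrophages 1 was lower without stimulation, the monocyte gene Ly6c2 (−3.17), and 2 were lower and 2 higher after LPS, and Folr2 had 0 counts in all groups. Lymphoid genes summed to at most 1.65 CPM in any library, and the 1 tested, Klrb1c, was higher in AhR-KO cells after LPS (1.95). Of 8 tested lung epithelial and fibroblast genes Epcam, which is also in the dendritic and Langerhans list, was lower in both states (−5.62 and −7.02). Dcn was higher after LPS (3.84), and Sftpc, the surfactant gene of alveolar epithelium, had 0 counts. The part of these other cell types in the differences of the members was not tested.

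**Figure D4:**
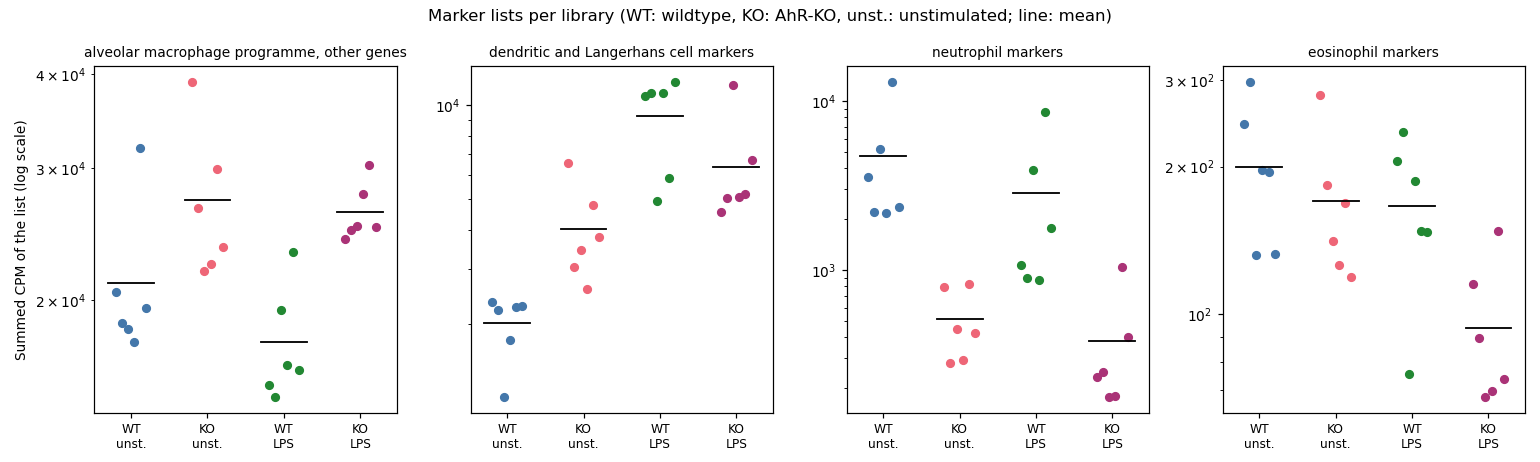
Summed CPM of 4 gene lists in each library on a log scale, with 1 point per library and a line at the mean. The neutrophil list is lower in AhR-KO cells, at 282 to 829 CPM without stimulation against 2171 to 12945 CPM in WT, and the eosinophil list overlaps between the genotypes in both states.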

How the data were processed

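The authors deposited a table of counts per gene for 24 libraries, whole numbers without normalization. Per the labels and the methods, poly(A) RNA was made into strand-specific libraries, read in 100 bp pairs, aligned to mm10 with GSNAP, and counted on Ensembl release 98 with featureCounts 2.0.1. The submitters' processing notes also list hg38, which was not used here. Of 55421 genes 55154 had a symbol in GENCODE M21. The 92 spike-in sequences held 1 count in all and were left out.

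Groups were taken from the labels. Counts were fitted with edgeR 4.0.16 (quasi-likelihood, robust, TMM factors between 0.704 and 1.30, R 4.3.3) on the 16593 genes kept by filterByExpr, with a coefficient per group over all 24 libraries and Benjamini-Hochberg adjustment over all genes. Precision is set by replicate spread (common biological coefficient of variation 49.1%) more than by counting noise, and depth is given above. DESeq2 1.42.0 (a tool the study also used, in another version), limma-voom 3.58.1, other scalings and filters, the run and the length slope as terms, and leaving out each library were alternatives. The procedure was tested on simulated data. Levels are TMM-scaled CPM, and 0.5 was added before log2.

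The members and lists were chosen with earlier results of these data known, and the lists were written from general knowledge. The lists share genes, so their counts are not independent. Ear1 and Ear6 are in the wider programme and the eosinophil list, and Kit is in the dendritic and the mast cell list. Cd36, Fabp5, Cidec, Lpl, Abcg1 and Mgll are in the wider programme and among the PPARγ targets. All members are named. From a list, at most 4 DEGs per direction and comparison were named, those with the largest change, with markers at 0. Ear1, Ear6, Ear10, Prg2, Epx and Ahrr were named as relatives, defining genes or a check after their values were seen. The motifs GAGGAA and TTGCNNAA were added after the others had been searched. Leaving out replicates 19 and 33 together, and 34 and 38 together, was added after seeing the data. Promoters came from RefSeq.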

Additional observations from a re-analysis of the deposited data

Results flagged for a closer look

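In 40 sets of 6 libraries, 1 for each member and group, the distance of the highest or lowest library from its neighbour was compared with Dixon's critical value of 0.625, which chance exceeds in about 1 of 20 sets. Krt79 stood apart in 2. Replicate 34 of WT unstimulated cells had 18.9 CPM, a gap of 0.767 of the group's range. Replicate 31 of AhR-KO LPS cells had 0.0787 CPM, a gap of 0.743 of a range that rests on 5 counts.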

How the results depend on the processing

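Of 1739 values of the members under alternatives, 1659 kept direction and side of the threshold, 23 passed it newly, 17 lost it and 40 changed sign. For each result 24 of the alternatives left out 1 library, often one outside both groups compared. The share that stayed the same is therefore partly set by the choice of alternatives. The count of members called between genotypes after LPS was 1 with limma-voom, with total library size, without both replicates 19 and 33 and without both replicates 34 and 38, 3 with DESeq2 and with the length slope, and between 1 and 3 when each replicate was left out. Without stimulation it was 3 with DESeq2 and with the 12 libraries compared alone, and 4 with the length slope and with the run. The interaction count was 1 with DESeq2, 1 with the length slope and 2 with the run, and between 0 and 2 when each replicate was left out. The shares over all genes given above are those of the main fit. Without the shares under these alternatives, such counts cannot be read as particular to the members. Signs changed only for differences that were not called. With the length slope these were Marco after LPS in WT (−0.37) and the interactions of Marco (0.38) and Bhlhe41 (0.084). With limma-voom they were Marco in WT (−0.14), its interaction (0.21) and Fabp4 between genotypes after LPS (0.043). With the run they were Marco in WT (−0.0071) and AhR-KO cells (−0.30) and Itgax in AhR-KO cells (−0.027). With total library size they were Marco in WT (−0.0092) and AhR-KO cells (−0.32), Itgax in AhR-KO cells (−0.39) and Chil3 between genotypes after LPS (−0.053). Without both replicates 19 and 33 the changes of Itgax and Marco in AhR-KO cells were −0.051 and −0.017, and without both replicates 34 and 38 Fabp4 between genotypes after LPS was 0.22. Leaving out each replicate gave ranges of −0.35 to 0.19 (Bhlhe41, interaction), −0.57 to 0.22 (Fabp4, genotypes after LPS), −0.038 to 0.85 (Fabp4, genotypes without stimulation), −0.051 to 0.26 (Itgax, LPS in AhR-KO), −0.14 to 0.49 (Marco, LPS in AhR-KO), −0.29 to 0.81 (Marco, LPS in WT) and −0.62 to 0.48 (Marco, interaction). The cause was not tested. No paired analysis was made because the replicate numbers are not shared between groups and no label ties an LPS library to an unstimulated one.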
